A study of Arabidopsis thaliana with 6 samples.

Results

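Aquaporins are the membrane channels of the major intrinsic protein family, and their transcripts were followed here in flower buds of Arabidopsis thaliana. The loci described are those whose deposited description contains "intrinsic protein" or "tonoplast integral protein": 33 of the 25964 loci that had a read in any library. By type they are 13 plasma membrane intrinsic proteins (PIP), 9 tonoplast intrinsic proteins (TIP), 9 NOD26-like intrinsic proteins (NIP) and 2 small basic intrinsic proteins (SIP). One of the PIP loci, AT2G16830, has no coding sequence in RefSeq. Genes are named as the deposited protein annotation names most of them, so that aquaporin TIP1-3 is the product of the gene with the symbol TIP1;3. The 6 libraries are atcep1 stage A, atcep1 stage B and atcep1 stage C, and WT stage A, WT stage B and WT stage C, each sequenced once. The atcep1 plants are mutant in CEP1, which encodes a papain-type cysteine protease, and WT plants are wild type. All are in the Columbia background and grew on soil under 14 h of light and 10 h of dark at 23 °C. Buds at stage A had anthers of stages 5 to 6, those at stage B of stages 7 to 9, and those at stage C of stages 10 to 11. The age of the plants, the kind of mutation and whether libraries came from separate plants are not given in the labels, so p-values measure only the spread between these libraries.

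Aquaporins form tetramers of small pores that pass water and, depending on the member, urea, ammonia, boric acid, hydrogen peroxide, carbon dioxide or arsenite. PIPs sit mainly in the plasma membrane, TIPs mainly in the vacuolar membrane, SIPs in the endoplasmic reticulum, and several NIPs carry boric acid or other small uncharged solutes across the plasma membrane. In Arabidopsis anthers, TIP1-3, TIP5-1 and the NIP4 pair are known from pollen and pollen tubes, whereas NIP7-1 is known as a boric acid channel of young anthers. CEP1 is known in Arabidopsis for its part in the death of the tapetum, the nursing cell layer around the developing pollen.

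The pore of an aquaporin is lined by a pair of NPA boxes, an asparagine, a proline and an alanine in each of 2 short helices that meet in the membrane. Both boxes were found in the longest RefSeq coding sequence (TAIR10.1) of 32 of the 33 loci, the exception being AT2G16830. The third codon was an alanine codon in both boxes of all 12 PIPs and all 9 TIPs with coding sequence, in 4 of 9 NIPs and in 0 of 2 SIPs. Boxes of members that carry the results are printed to show this, with 33 bases of coding strand each and the 3 codons of the box in capitals.

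PIP2-4 box 1: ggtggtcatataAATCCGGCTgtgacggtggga
PIP2-4 box 2: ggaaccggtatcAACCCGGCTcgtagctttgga
TIP1-3 box 1: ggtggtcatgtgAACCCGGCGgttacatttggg
TIP1-3 box 2: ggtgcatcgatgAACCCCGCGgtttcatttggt
NIP4-1 box 1: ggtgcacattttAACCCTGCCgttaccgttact
NIP4-1 box 2: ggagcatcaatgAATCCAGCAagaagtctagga
NIP7-1 box 1: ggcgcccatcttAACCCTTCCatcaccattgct
NIP7-1 box 2: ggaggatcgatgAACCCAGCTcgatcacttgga
NIP6-1 box 1: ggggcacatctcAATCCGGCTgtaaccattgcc
NIP6-1 box 2: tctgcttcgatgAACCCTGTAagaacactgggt
NIP5-1 box 1: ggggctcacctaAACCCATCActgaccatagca
NIP5-1 box 2: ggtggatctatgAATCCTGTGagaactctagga
SIP1-1 box 1: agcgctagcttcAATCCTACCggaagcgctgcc
SIP2-1 box 1: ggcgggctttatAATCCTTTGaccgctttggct

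The third codon is a serine codon (TCC in NIP7-1, TCA in NIP5-1) in the first box of the boric acid channels NIP7-1 and NIP5-1. A valine codon (GTA in NIP6-1, GTG in NIP5-1) ends the second box of NIP6-1 and NIP5-1. NIP4-1, the pollen NIP, keeps alanine in both. In the first box the SIPs have a threonine codon (ACC, SIP1-1) and a leucine codon (TTG, SIP2-1).

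The libraries held about 4040000 to 4410000 uniquely mapped reads (to the nearest 10000), and aquaporins took 0.469% to 0.480% of them in atcep1 and 0.398% to 0.490% in WT. A count of 3 reads, taken as the floor, is 0.680 to 0.743 RPKM (reads scaled by model length and by library total) on a model of 1 kb. CEP1 itself had 4, 5 and 6 reads in atcep1 at stages A, B and C, against 0, 1 and 6 reads in WT. At this depth the gene does not check the genotype labels, and "atcep1" stands for libraries labelled so. All 7 floral organ markers were read in every library, and 2 of them, AP1 and AG, were called higher in atcep1. Markers of other cells in the bud also differed between genotypes: 10 of 10 tested tapetum markers, 3 of 8 pollen markers and 3 of 4 vascular markers were called higher, against 16.0% of all genes tested. Of 4 tested carpel and ovule markers 1, INO, was called lower, against 11.5% of all genes. Of 5 green tissue markers 0 were called, and summed over 5 genes the maturing seed markers stayed at or below 0.0809 RPKM. Since a bud is a mixture of cells, fewer cells of a type and less RNA per cell cannot be told apart.

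Most of the family's signal came from 3 vacuolar channels. TIP1-1, TIP1-2 and TIP2-1, abundant vacuolar water channels, together made up 70.6% to 76.6% of the summed aquaporin RPKM in atcep1 and 70.8% to 78.0% in WT. Across the 6 libraries TIP1-1 ranged from 1132 to 1938 RPKM, above the range of TIP1-2, which was 640 to 1082 RPKM. The range of TIP2-1, 618 to 695 RPKM, overlapped that of TIP1-2, so these neighbours were not in a fixed order. Next came PIP2-6, the plasma membrane member with the highest RPKM, at 245 to 400 RPKM. SIP1-1 of the endoplasmic reticulum came after it at 138 to 158 RPKM. PIP2-5 followed at 76.4 to 107 RPKM. No 2 of these 3 ranges overlapped. The 18 loci that followed averaged 71.7 down to 4.50 RPKM, with ranges that overlapped from one to the next, and NIP2-1 and NIP1-1 averaged 2.37 and 2.21 RPKM.

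**Figure D1:**
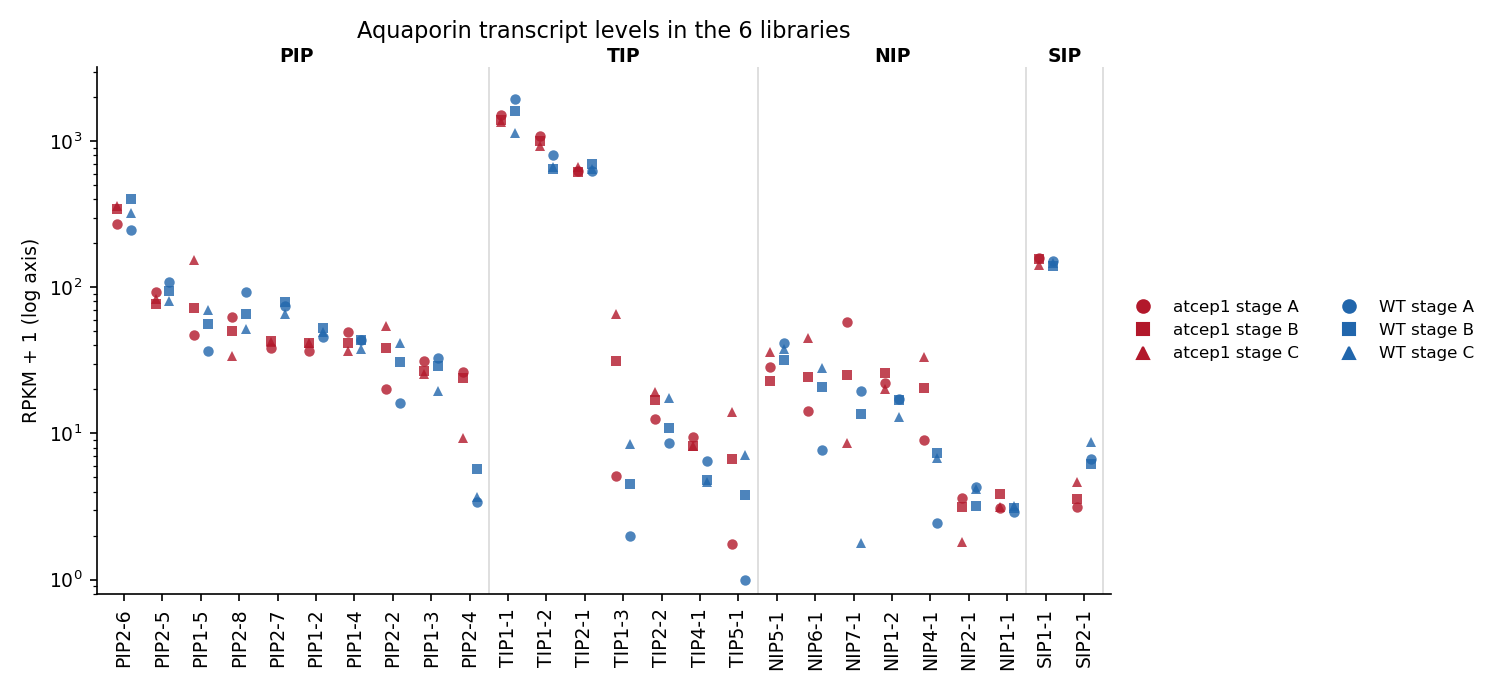
RPKM + 1 on a log axis for the 26 aquaporins with a mean of at least 1 RPKM, sorted by type and mean level, with atcep1 libraries in red left of WT libraries in blue and 1 symbol per stage. TIP1-1, TIP1-2 and TIP2-1 stand above the rest, and TIP1-3, NIP4-1, NIP7-1 and PIP2-4 show the widest separation of red from blue.

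The 7 other loci stayed at the limit of detection. PIP1-1 and PIP2-1, known as abundant plasma membrane channels of Arabidopsis leaves and roots, had 0 to 5 and 0 to 3 reads. TIP3-2, a channel of maturing seed vacuoles, had 0 to 3 reads, NIP3-1 0 to 2, TIP2-3 0 to 2, and NIP4-2 and AT2G16830 0 to 1. The deposited counts hold uniquely mapped reads per transcript model, and PIP1-1 and PIP2-1 each have 2 RefSeq transcripts. Of the stretches of 49 bases in their RefSeq transcripts, 82.5% and 80.3% are shared with another transcript of the same locus. Among 8 members with several RefSeq transcripts and at least 100 reads in a library, 4 had at most 31.9% of the most read model covered, namely PIP1-2 (7.41%), PIP1-3 (9.40%), PIP2-7 (13.9%) and PIP1-4 (31.9%). The 12 members with 1 RefSeq transcript and as many reads were covered over 82.4% to 99.6%. The rest of the 8, PIP2-2, PIP2-6, NIP7-1 and NIP1-2, were covered over up to 81.7%, 96.2%, 92.4% and 89.75%. Of their stretches 89.2%, 67.4%, 68.1% and 57.7% are shared between RefSeq transcripts, which need not be the models that were counted. Deposited models with a read numbered 1 for each of these 4 and for PIP1-3. There were 2 for each of PIP1-2, PIP2-7 and PIP1-4. RPKM of some members with several transcripts may be too low, and whether reads shared by transcripts were dropped was not tested. The order of members, the shares of the family and the sums by type use these RPKM values and carry the same limit. Stretches also found elsewhere in the genome made up 14.9% of PIP2-2, 9.93% of NIP3-1, 9.38% of NIP2-1, 3.32% of NIP4-1 and 3.34% of NIP4-2, and their counts are uncertain to that extent.

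Summed by type, only the NIPs stood higher in atcep1 than in WT at every stage with an interval above 1. The NIP sum was 131, 119 and 142 RPKM in atcep1 at stages A, B and C, against 88.7, 89.9 and 87.8 RPKM in WT. The ratio was 1.48 at stage A (95% interval 1.32 to 1.67), 1.32 at B (1.17 to 1.49) and 1.62 at C (1.44 to 1.82). Intervals of the type sums are exact intervals of the ratio of summed reads, rescaled to the RPKM ratio. They cover counting error only. At stage A the NIP ratio rested on NIP7-1: without it the ratio of the other NIPs was 1.06, and 1.23 at B and 1.55 at C. Without NIP4-1 the NIP ratio was 1.41, 1.19 and 1.34 at stages A, B and C. NIP5-1, the NIP with the highest mean RPKM, was lower in atcep1 at each stage. The TIP sum was 3234, 3074 and 3038 RPKM in atcep1, against 3383, 2963 and 2484 RPKM in WT. Its ratio was 0.956 at A (0.935 to 0.978), 1.04 at B (1.01 to 1.06) and 1.22 at C (1.19 to 1.25), so the 2 genotypes differed in opposite directions at the first and last stage. For the PIPs the sum was 664, 751 and 832 RPKM in atcep1, against 690, 849 and 737 RPKM in WT, with ratios of 0.963 (0.919 to 1.01), 0.884 (0.846 to 0.923) and 1.13 (1.08 to 1.18). The SIP sum was 160, 157 and 145 RPKM in atcep1, against 157, 143 and 154 RPKM in WT, and its 3 intervals all included 1. Each ratio sets 1 library against 1 library and has no replicate check.

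**Figure D2:**
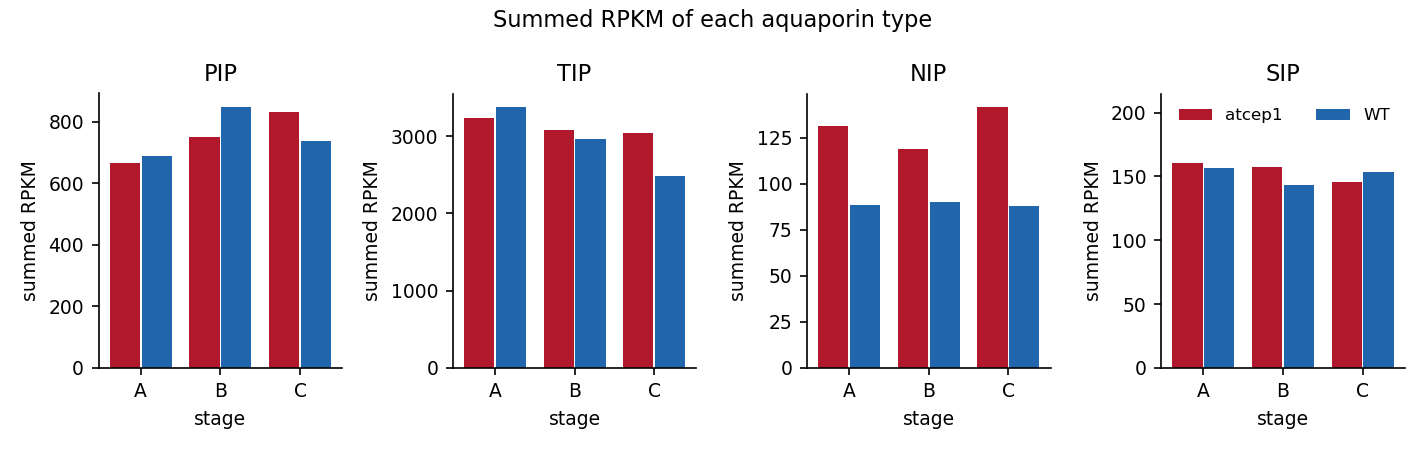
Summed RPKM of each aquaporin type (vertical axes start at 0 and differ in scale) at stages A, B and C, with atcep1 bars in red left of WT bars in blue, 1 library per bar and no error bars. The NIP sum is 119 to 142 RPKM in atcep1 and 87.8 to 89.9 RPKM in WT; the TIP sum of WT is lowest at stage C, at 2484 RPKM.

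Genotype was tested over all 3 stages with edgeR's quasi-likelihood test and Benjamini-Hochberg adjustment, on the 26 members that passed a filter on low counts. At an adjusted p below 0.05, 11 of the 26 were called higher in atcep1, against a background of 16.0% of all 16114 genes tested, and 3 were called lower, against 11.5%. By type, 3 PIPs were higher and 2 lower of 10 tested, 4 TIPs higher of 7, 4 NIPs higher of 7, and 1 SIP lower of 2. The median log2 fold change was 0.18 over the 26 members and -0.003 over all genes tested. Of the 14 called members, 5 kept their call in all 10 alternative settings that retained a stage term: TIP1-3, PIP2-4, NIP4-1 and PIP1-5, which were higher, and PIP2-7, which was lower. With DESeq2 in place of edgeR, 6 members were called higher and 1 lower, against 9.63% and 4.54% of all genes. When 1 stage was left out, 5 to 7 members were called higher, against 9.66% to 16.3% of all genes, and 1 to 6 lower, against 4.44% to 14.0%. Without a stage term 0 were called higher, against 1.84%, and 1 lower, against 1.23%.

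**Figure D3:**
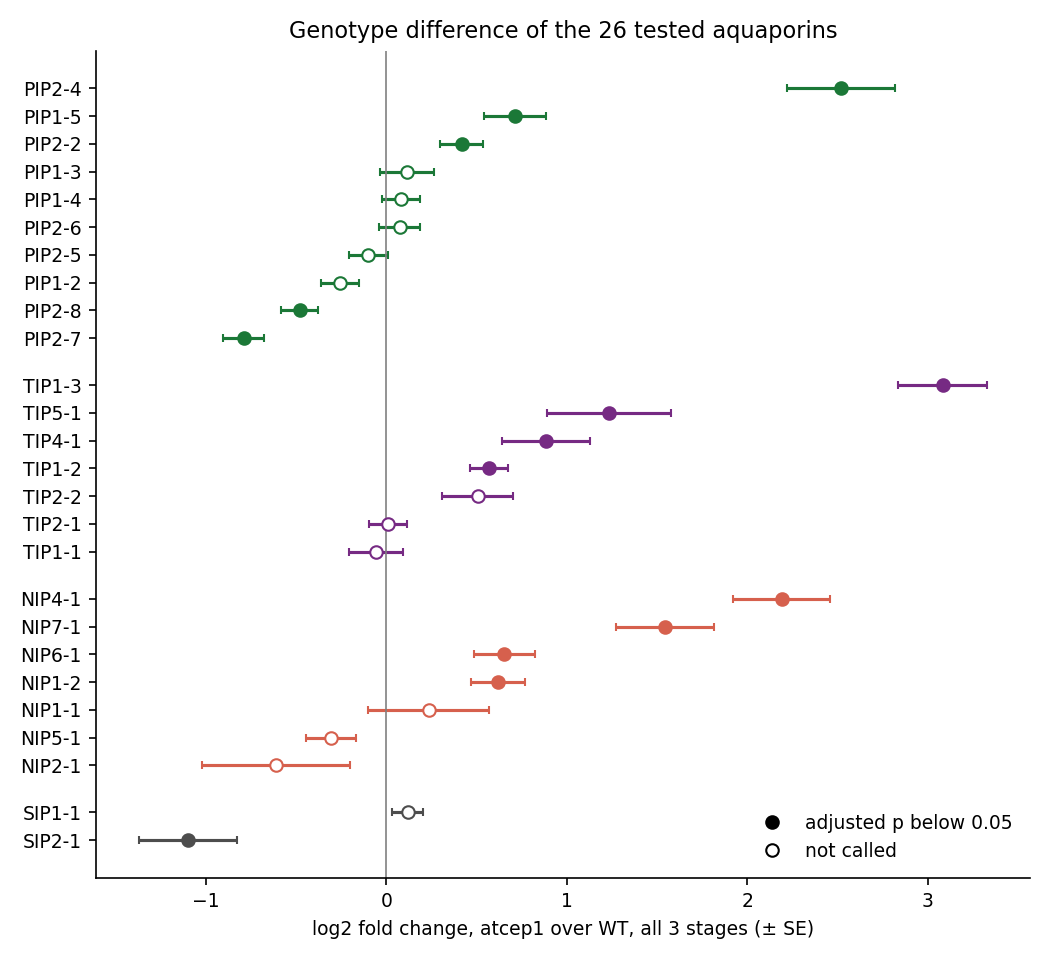
Log2 fold change of atcep1 over WT across the 3 stages (horizontal axis) for the 26 tested aquaporins, coloured and grouped by type. Bars are ± SE derived from edgeR's F statistic, with 3 libraries a genotype, 1 per stage. Filled points have an adjusted p below 0.05. TIP1-3, PIP2-4 and NIP4-1 lie above 2, and SIP2-1 lies lowest at -1.10.

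Of the vacuolar channels known from pollen, TIP1-3 had the largest fold change of the 26 tested members in this fit, and TIP5-1 a smaller one. TIP1-3 (AT4G01470, chr4:625092-625850, minus strand, TAIR10; 1 coding exon), which passes water and urea, had 4.14, 30.1 and 65.1 RPKM in atcep1 at stages A, B and C, against 0.979, 3.53 and 7.44 RPKM in WT. Behind these stood 13, 95 and 218 reads in atcep1, against 3, 11 and 24 reads in WT. At each stage the atcep1 library was the higher, and the genotypes overlapped across stages only through atcep1 stage A, which lay below WT stage C. The log2 fold change was 3.08 ± 0.25 (SE derived from edgeR's F statistic, 3 libraries a genotype, 1 per stage, adjusted p = 0.000121). TIP5-1 (AT3G47440, chr3:17482025-17483158, plus strand), described from Arabidopsis pollen tubes, had 0.747, 5.69 and 13.1 RPKM in atcep1, against 0, 2.76 and 6.06 RPKM in WT. Its stage A values are 3 and 0 reads, at the floor. The genotypes overlapped across stages, and the log2 fold change was 1.24 ± 0.34 (adjusted p = 0.0296), a call lost with DESeq2 and without any 1 stage.

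Of the pollen markers, 3 of 8 tested were called higher in atcep1 and 0 lower, against 16.0% and 11.5% of all genes tested. All 10 summed to 102, 551 and 1517 RPKM in atcep1 at stages A, B and C, against 31.9, 363 and 895 RPKM in WT, with MYB101 at 0 in the atcep1 library of stage B and in the WT libraries of stages A and C, and ANX2 at 0 in that of WT stage A. VGD1, a pollen pectin methylesterase, was higher in atcep1 by 1.40 ± 0.34 on the log2 scale (adjusted p = 0.0179). VGD1 made up most of the sum in every library except WT stage A. Without it, the sum was 32.3, 73.6 and 264 RPKM in atcep1, against 23.1, 85.5 and 176 RPKM in WT, so that it was lower in atcep1 at stage B. The atcep1 library was above the WT library in 9 of 10 markers at stage A, 5 at stage B and 9 at stage C. The part of pollen RNA in the TIP1-3 and TIP5-1 values was not tested.

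Other TIPs were split. TIP1-2 (AT3G26520) had 1082, 1005 and 923 RPKM in atcep1, against 804, 640 and 669 RPKM in WT. All 3 atcep1 libraries lay above all 3 WT libraries, with a log2 fold change of 0.57 ± 0.11 (adjusted p = 0.00589). The call was lost without stage A. TIP4-1 (AT2G25810), a vacuolar channel that also passes urea, had 8.50, 7.21 and 7.19 RPKM in atcep1, against 5.52, 3.77 and 3.63 RPKM in WT. Here too the genotypes did not overlap, at 35 to 41 reads in atcep1 and 18 to 26 reads in WT. The log2 fold change was 0.89 ± 0.24 (adjusted p = 0.0283), a call lost with DESeq2 and without any 1 stage.

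The 3 other tested TIPs were not called. TIP2-2 (AT4G17340), known from the root stele, had 11.6, 16.0 and 18.3 RPKM in atcep1, against 7.60, 9.98 and 16.6 RPKM in WT, and a log2 fold change of 0.51 ± 0.20 (adjusted p = 0.0880). TIP2-1 (AT3G16240), which passes water and ammonia, had 622, 618 and 669 RPKM in atcep1, against 626, 695 and 650 RPKM in WT, and a log2 fold change of 0.0084 ± 0.11 (adjusted p = 0.962). TIP1-1 (AT2G36830, chr2:15445425-15446574), the member with the highest RPKM, had 1505, 1392 and 1343 RPKM in atcep1, against 1938, 1608 and 1132 RPKM in WT. Its values were lower at each later stage in both genotypes, and the libraries crossed. Reads were 0.777 times WT at stage A (0.752 to 0.802), 0.866 times at B (0.836 to 0.896) and 1.19 times at C (1.14 to 1.23). Over all stages the log2 fold change was -0.056 ± 0.15 (adjusted p = 0.804), and it was 0.084 without stage A, 0.0080 without stage B and -0.27 without stage C (adjusted p = 0.0312 for the last).

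**Figure D4:**
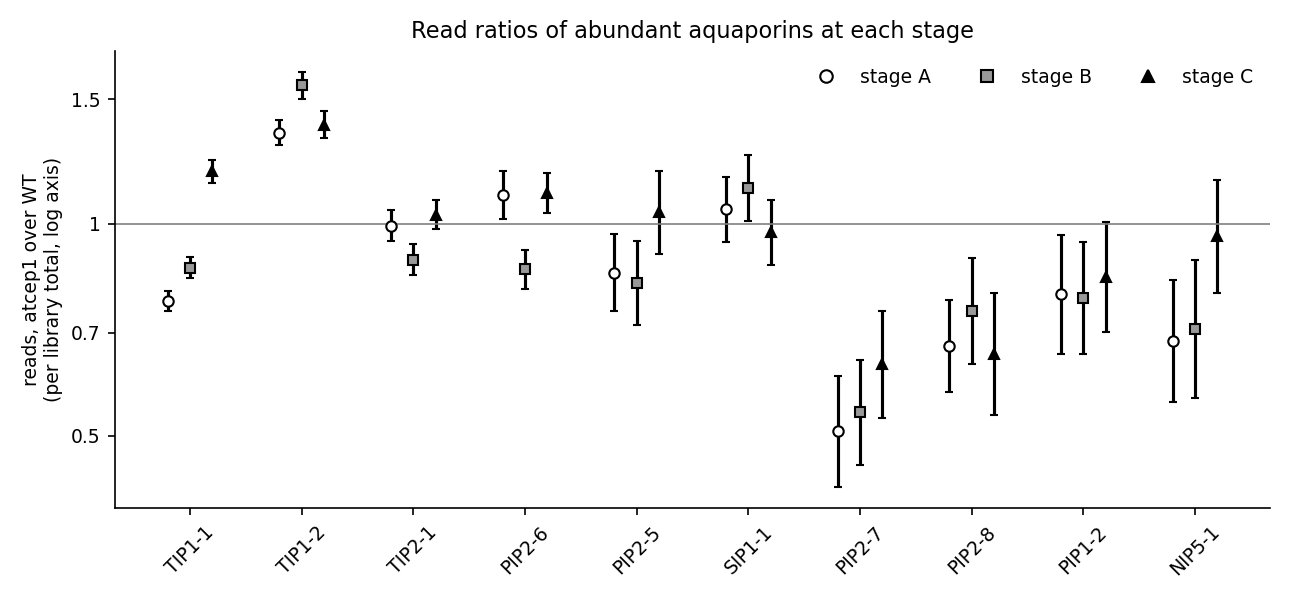
Reads in atcep1 over reads in WT, each per library total, at stages A, B and C (log axis) for 10 abundant aquaporins, with exact 95% intervals that cover counting error only; 1 library a genotype and stage. TIP1-1 lies below 1 at stages A and B and at 1.19 at stage C, TIP1-2 lies between 1.35 and 1.57, and PIP2-7 and PIP2-8 lie below 1 throughout.

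Of the 7 tested NIPs, NIP4-1 and NIP7-1, both known from anthers, had the largest fold changes. NIP4-1 (AT5G37810, chr5:15045232-15047807, plus strand), a pollen channel, had 7.95, 19.5 and 32.5 RPKM in atcep1, against 1.45, 6.30 and 5.80 RPKM in WT. Every atcep1 library lay above every WT library, with 28, 69 and 122 reads in atcep1 against 5, 22 and 21 reads in WT. The log2 fold change was 2.19 ± 0.27 (adjusted p = 0.000804). Its near copy NIP4-2 (AT5G37820), which follows it on the same strand of chromosome 5 and is also known from pollen, had 1 read in the atcep1 library of stage B and 0 reads elsewhere.

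NIP7-1 (AT3G06100, chr3:1841171-1843093, minus strand) ran the other way over time. It had 56.6, 23.9 and 7.53 RPKM in atcep1 at stages A, B and C, against 18.5, 12.6 and 0.782 RPKM in WT, where the last value is 4 reads. The level was highest at stage A and lowest at stage C in each genotype, and atcep1 was higher at each stage, but the atcep1 library of stage C lay below the WT libraries of stages A and B. The log2 fold change was 1.54 ± 0.27 (adjusted p = 0.00444), a call lost without stage A. The 11 tapetum markers summed to 2160, 1319 and 288 RPKM in atcep1, against 703, 346 and 49.8 RPKM in WT. All 11 were lower at each later stage in both genotypes, and 10 of 11 were higher in atcep1 at every stage. The exception, DYT1, which was too low to be tested, had 11, 1 and 0 reads in atcep1, against 22, 3 and 1 reads in WT. Their part in the NIP7-1 values was not tested.

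The boric acid channels that are known mainly outside the anther gave mixed values. NIP6-1 (AT1G80760), known from shoot nodes, had 13.2, 23.2 and 44.1 RPKM in atcep1, against 6.74, 19.9 and 27.0 RPKM in WT. The atcep1 library was higher at each stage while the genotypes overlapped across stages, and the log2 fold change was 0.65 ± 0.17 (adjusted p = 0.0229). This call was lost with DESeq2 and without stage A or stage C. NIP5-1 (AT4G10380), the boric acid uptake channel of roots, had 27.7, 22.0 and 35.3 RPKM in atcep1, against 40.5, 30.9 and 36.8 RPKM in WT, lower at each stage but overlapping. Its log2 fold change of -0.31 ± 0.14 was not called (adjusted p = 0.132), whereas without stage C it was -0.51 (adjusted p = 0.00722).

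NIP1-2 (AT4G18910), known for carrying aluminium malate and arsenite, had 21.3, 24.8 and 19.2 RPKM in atcep1, against 16.2, 15.9 and 12.0 RPKM in WT. The 3 atcep1 libraries lay above the 3 WT libraries, and the log2 fold change was 0.62 ± 0.15 (adjusted p = 0.0170), lost with DESeq2 and without stage B. NIP1-1 and the lactic acid channel NIP2-1 stayed at 4 to 15 reads and were not called (adjusted p = 0.632 and 0.293).

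PIP2-4 gave the largest difference among plasma membrane channels. PIP2-4 (AT5G60660, chr5:24375457-24376989, minus strand), which passes water and hydrogen peroxide and is known mainly from roots, had 25.4, 22.9 and 8.34 RPKM in atcep1, against 2.39, 4.70 and 2.68 RPKM in WT. Every atcep1 library lay above every WT library, on 120, 109 and 42 reads in atcep1 and 11, 22 and 13 reads in WT. The log2 fold change was 2.52 ± 0.30 (adjusted p = 0.000719). Between the libraries of a stage the read ratio was 10.7 at A (5.74 to 21.9), 4.88 at B (3.07 to 8.11) and 3.11 at C (1.64 to 6.32). The vascular markers summed to 81.2, 112 and 156 RPKM in atcep1 at stages A, B and C, against 43.3, 94.1 and 130 RPKM in WT. XCP1 was at 0 in the atcep1 library of stage B. Of all 7 vascular markers, 6 were above WT in atcep1 at stage A, 4 at stage B and 4 at stage C. Below WT were 1, 3 and 3 of them, and only 3 were above WT at every stage. The 3 of 4 tested that were called higher were CESA4, CESA7 and CESA8, while SUC2 was not called (0.22 ± 0.15, adjusted p = 0.319). Without SUC2, which made up most of the sum, it was 21.3, 39.5 and 41.9 RPKM in atcep1, against 6.92, 12.7 and 15.2 RPKM in WT. A link between the vascular markers and the PIP2-4 values was not tested.

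PIP1-5 (AT4G23400) had 46.3, 71.3 and 153 RPKM in atcep1, against 35.8, 55.3 and 68.8 RPKM in WT. The atcep1 library was higher at each stage, and the read ratio was 1.29 at A (1.05 to 1.60), 1.29 at B (1.09 to 1.52) and 2.22 at C (1.95 to 2.53). Its log2 fold change was 0.71 ± 0.17 (adjusted p = 0.0169), and 0.38 without stage C. PIP2-2 (AT2G37170), a water channel near a close copy, had 19.2, 37.5 and 53.4 RPKM in atcep1, against 15.1, 29.8 and 40.7 RPKM in WT, with a log2 fold change of 0.42 ± 0.12 (adjusted p = 0.0312). The genotypes overlapped across stages, and the call was lost in 8 of 11 alternative settings.

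The PIPs called lower in atcep1 were PIP2-7 and PIP2-8. PIP2-7 (AT4G35100), a plasma membrane water channel, had 37.3, 42.2 and 41.1 RPKM in atcep1, against 73.4, 78.2 and 65.1 RPKM in WT. No atcep1 library reached a WT library, and the log2 fold change was -0.79 ± 0.11 (adjusted p = 0.00177), called in all 11 alternative settings. At most 13.9% of its most read model was covered, so under every setting the difference is known for the covered part only. PIP2-8 (AT2G16850), its close relative, had 61.3, 48.9 and 33.0 RPKM in atcep1, against 91.4, 65.0 and 50.5 RPKM in WT. It was lower in atcep1 at each stage with overlap across stages, and its log2 fold change was -0.48 ± 0.10 (adjusted p = 0.00931), lost with DESeq2 and without stage A.

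The remaining PIPs were not called. PIP2-6 (AT2G39010) had 269, 344 and 358 RPKM in atcep1, against 245, 400 and 324 RPKM in WT, with a log2 fold change of 0.075 ± 0.11 (adjusted p = 0.649). PIP2-5 (AT3G54820) had 91.3, 76.4 and 82.6 RPKM in atcep1, against 107, 92.9 and 79.7 RPKM in WT (log2 fold change -0.10 ± 0.11, adjusted p = 0.518). Both sets of libraries overlapped. PIP1-2 (AT2G45960), which passes carbon dioxide, had 35.6, 40.6 and 40.8 RPKM in atcep1, against 44.8, 51.7 and 48.6 RPKM in WT. Its genotypes did not overlap, yet the log2 fold change of -0.26 ± 0.11 did not pass (adjusted p = 0.102), and it passed without stage C at -0.33. PIP1-3 (AT1G01620) had 30.5, 25.5 and 24.6 RPKM in atcep1, against 31.8, 27.8 and 18.5 RPKM in WT (adjusted p = 0.587). PIP1-4 (AT4G00430) had 48.7, 40.6 and 35.8 RPKM in atcep1, against 42.6, 42.6 and 37.0 RPKM in WT (adjusted p = 0.585). The libraries of both genes overlapped between genotypes.

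Of the SIPs, SIP2-1 (AT3G56950) had 2.15, 2.56 and 3.62 RPKM in atcep1, against 5.72, 5.20 and 7.74 RPKM in WT. Every atcep1 library lay below every WT library on 10 to 18 reads in atcep1 and 24 to 37 reads in WT, all on at most 17.9% of the model. The log2 fold change was -1.10 ± 0.27 (adjusted p = 0.0191), lost with DESeq2 and without stage A. SIP1-1 (AT3G04090) had 158, 155 and 142 RPKM in atcep1, against 151, 138 and 146 RPKM in WT, and its log2 fold change of 0.12 ± 0.09 was not called (adjusted p = 0.344).

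Libraries of 1 stage were also set against each other, without a test. Members were counted where the 2 values of RPKM + 1 differed by 2-fold or more and at least 1 of the libraries reached 5 RPKM, a scale that understates the change of low genes. At stage A, 3 of 22 members were higher (NIP4-1, NIP7-1 and PIP2-4), against 6.23% of all loci, and 1 was lower (SIP2-1), against 3.25%. At stage B, 3 of 24 were higher (NIP4-1, PIP2-4 and TIP1-3), against 6.64%, and 0 lower, against 4.0%. At stage C, 5 of 24 were higher (NIP4-1, NIP7-1, PIP1-5, PIP2-4 and TIP1-3), against 8.15%, and 0 lower, against 3.89%. NIP4-1 and PIP2-4 were past 2-fold at all 3 stages. The median log2 ratio of these members was 0.16, 0.19 and 0.32 at stages A, B and C, and that of all such loci -0.034, -0.026 and -0.11.

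From stage A to B the largest called rises were those of TIP5-1, TIP1-3 and NIP4-1, which are known from pollen. At stage A TIP5-1 had 3 reads in atcep1 and 0 reads in WT, at the floor, so the size of its rise is uncertain. From stage A to stage B, fitted over both genotypes, 6 members were called higher at B, against 4.36% of all genes tested, and 0 lower, against 0.484%. Of the 26, 9 had an unadjusted p below 0.05, against 2504 of all 16114 genes tested. The 6 were TIP5-1 (log2 fold change 3.46 ± 0.65, adjusted p = 0.0190), TIP1-3 (2.72 ± 0.36, adjusted p = 0.00321), NIP4-1 (1.58 ± 0.35, adjusted p = 0.0398), NIP6-1 (1.20 ± 0.23, adjusted p = 0.0187), PIP2-2 (1.03 ± 0.15, adjusted p = 0.00610) and PIP2-6 (0.59 ± 0.14, adjusted p = 0.0486). Without the atcep1 library of stage A these calls were lost, and without the WT library of stage A or of stage B some were lost. Each of these fits leaves 1 library at a stage. NIP4-1 was not called with DESeq2 (adjusted p = 0.0618), nor TIP1-3 with limma on log2(RPKM + 1) (adjusted p = 0.0554). PIP2-6 was not called without TMM factors (adjusted p = 0.0670), with the most read model of each locus (adjusted p = 0.0545) or in either limma fit (adjusted p = 0.114 and 0.126). From stage B to stage C 1 member was called higher at C, against 4.28%, and 1 lower, against 2.36%. TIP1-3 was the one that rose (1.17 ± 0.24, adjusted p = 0.0247) and NIP7-1 the one that fell (-2.18 ± 0.38, adjusted p = 0.0117). The rise of TIP1-3 was not called with DESeq2 (adjusted p = 0.179), nor without the atcep1 library of stage B or of stage C. The members called higher at C changed as single libraries were left out. NIP7-1 kept its call without any 1 library and lost it with limma on log2(RPKM + 0.1) (adjusted p = 0.0512).

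Per library total and within each genotype, TIP1-3 read 7.26 times more at B than at A in atcep1 (exact 95% interval 4.05 to 14.1) and 3.61 times more in WT (0.954 to 20.2). From B to C the ratio was 2.16 in atcep1 (1.69 to 2.78) and 2.11 in WT (0.993 to 4.76). For NIP4-1 the step from B to C was 1.67 in atcep1 (1.23 to 2.27) and 0.921 in WT (0.482 to 1.76). NIP7-1 dropped to 0.133 of its stage A level by stage C in atcep1 (0.0930 to 0.186) and to 0.0422 in WT (0.0113 to 0.112). PIP2-4 stood at 0.328 of its stage A level at stage C in atcep1 (0.225 to 0.470) and at 1.12 in WT (0.464 to 2.77). With 1 library a genotype and stage, a difference in slope between genotypes could not be tested. Of the 26 members with a mean of at least 1 RPKM, 6 read higher at each later stage in both genotypes (23.1%, against 11.3% of 18100 loci at that level) and 5 read lower at each later stage in both (19.2%, against 16.1%).

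**Figure D5:**
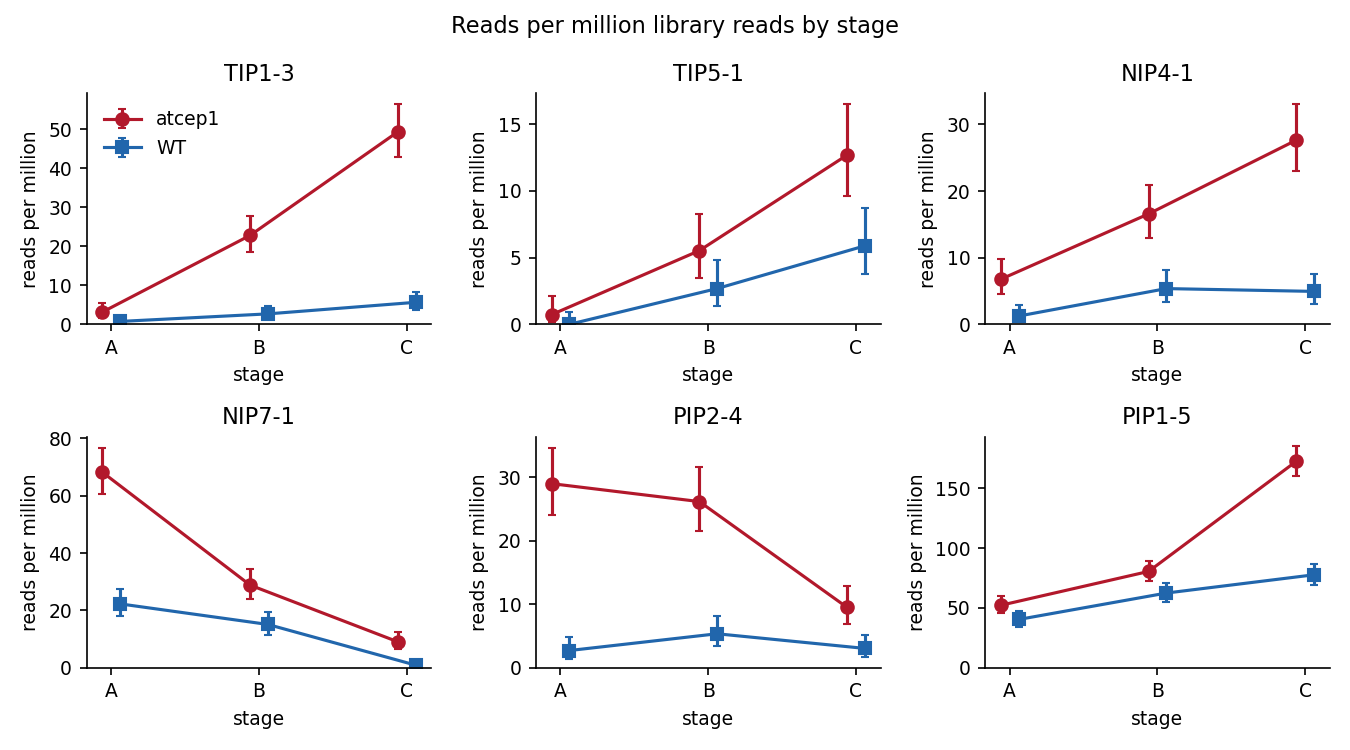
Reads scaled by library total (vertical axes) at stages A, B and C in atcep1 (red circles) and WT (blue squares) for 6 aquaporins called higher in atcep1, with exact 95% Poisson intervals of the counts and 1 library per point. TIP1-3, TIP5-1 and NIP4-1 are highest at stage C in atcep1, NIP7-1 and PIP2-4 are highest there at stage A, and PIP1-5 reaches 761 reads in atcep1 at stage C against 330 in WT.

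The upstream sequences of the 3 pollen aquaporins are printed because these genes were higher together in atcep1 and rose together from stage A to stage B. Each is the 250 bases before the gene start in RefSeq (TAIR10.1), 5′ to 3′ on the gene's strand. Capitals mark AGAAA on either strand (TTTCT on the strand shown), a motif first described in tomato pollen promoters.

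TIP1-3, chr4:625886-626135, minus strand: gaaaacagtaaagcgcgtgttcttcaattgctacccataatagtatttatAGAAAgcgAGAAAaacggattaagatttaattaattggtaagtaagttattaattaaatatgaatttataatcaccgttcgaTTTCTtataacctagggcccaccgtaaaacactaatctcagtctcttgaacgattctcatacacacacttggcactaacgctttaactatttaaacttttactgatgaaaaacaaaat
TIP5-1, chr3:17481746-17481995, plus strand: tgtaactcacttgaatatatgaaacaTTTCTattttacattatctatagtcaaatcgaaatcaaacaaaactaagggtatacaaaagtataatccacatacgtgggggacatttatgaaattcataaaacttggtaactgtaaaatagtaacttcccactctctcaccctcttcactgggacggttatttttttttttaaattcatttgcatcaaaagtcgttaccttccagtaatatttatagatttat
NIP4-1, chr5:15044864-15045113, plus strand: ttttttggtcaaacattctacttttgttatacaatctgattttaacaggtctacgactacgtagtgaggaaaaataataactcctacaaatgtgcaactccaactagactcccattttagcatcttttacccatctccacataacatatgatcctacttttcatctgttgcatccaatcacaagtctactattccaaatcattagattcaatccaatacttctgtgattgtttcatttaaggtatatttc

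AGAAA was found 3 times before TIP1-3, 1 time before TIP5-1 and 0 times before NIP4-1. It was present in 26 of 33 aquaporin windows (78.8%) and in 82.5% of the 27443 windows of all protein-coding nuclear genes.

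Partner lists held genes for aquaporin trafficking or gating, boron exporters and vacuolar proton pumps. Of their 12 tested genes, 2 were called higher in atcep1 (16.7%, near the 16.0% of all genes) and 0 lower, against 11.5%. Of 10 genes known for trafficking or gating of aquaporins, 7 were tested and 0 were called for genotype or for either step. SYP121, a syntaxin that brings PIPs to the plasma membrane, had a log2 fold change of 0.64 ± 0.28 (adjusted p = 0.127). Of the 3 boron exporters, which work with the NIP boric acid channels, 1 of 2 tested was called: BOR4 had 31.9, 32.5 and 19.6 RPKM in atcep1, against 17.0, 18.3 and 8.11 RPKM in WT. Its log2 fold change was 1.04 ± 0.13 (adjusted p = 0.000960), and from stage B to C BOR4 fell by 0.86 on the log2 scale (adjusted p = 0.0157). Of 3 vacuolar proton pump genes, VHA-A3 was called higher in atcep1 (0.52 ± 0.10, adjusted p = 0.00614), at 86.0, 92.5 and 116 RPKM in atcep1 against 65.1, 69.9 and 76.7 RPKM in WT. AVP1 and VHA-A2 were not called (adjusted p = 0.908 and 0.150).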

How the data were processed

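Poly(A) RNA was fragmented, copied from random hexamers and sequenced on a HiSeq, per the labels' protocols; no strand marking is described there. The authors deposited 1 table per library with, per the file headers, counts of uniquely mapped reads, RPKM, the percent of each model covered and model length. TAIR10 is the build in the submitters' processing notes; the aligner is not given in the sources used here. Counts and RPKM of 30088 models were summed per locus; unlisted models were set to 0. Coordinates matched RefSeq TAIR10.1 for 99.96% of 29866 models.

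edgeR 4.0.16 (R 4.3.3; TMM, filterByExpr, quasi-likelihood test) fitted stage plus genotype on 16114 genes, with 2 residual degrees of freedom, so any difference that varies with stage adds to the error, and no interaction of genotype and stage can be tested. Sequences were read with Biopython 1.88. Alternatives used DESeq2 1.42.0 and limma 3.58.1 on log2(RPKM + 1) and log2(RPKM + 0.1). The aquaporins, gene lists, markers and tests were chosen with earlier results of these data known. Every aquaporin is described; per-library values are given for those with a call or a mean of at least 5 RPKM. PCR copies are not independent molecules, so intervals and floors cover counting error only.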

Additional observations from a re-analysis of the deposited data

Results flagged for a closer look

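TIP1-1 and PIP2-6 moved in opposite directions at different stages, with read-ratio intervals on both sides of 1. TIP1-1 had fewer reads in atcep1 than in WT at stages A and B (0.777 and 0.866 times) and more at stage C (1.19 times), and its log2 read ratio differed by 0.61 between stage C and stage A. PIP2-6 had more reads in atcep1 at stages A and C (1.10 and 1.11 times) and fewer at stage B (0.861 times), and its log2 read ratio differed by 0.36 between stage C and stage B. With 1 library a genotype and stage, neither difference between stages was tested, and the intervals cover counting error only.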

How the results depend on the processing

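All 14 called members kept the sign of their genotype difference under all 11 alternatives. Members called higher in atcep1 numbered 11 in the main analysis, 6 with DESeq2, 5 to 7 with 1 stage left out and 0 without a stage term. Those called lower numbered 3, 1 with DESeq2, 1 to 6 with 1 stage left out and 1 without a stage term. For both steps the members called changed as single libraries were left out, and each such fit leaves 1 stage with 1 library. For B to C, DESeq2 called 0 higher, against 2.34% of all genes. The limma fits on log2(RPKM + 1) and log2(RPKM + 0.1) also called 0 higher, against 2.07% and 0.738%. No filter on low counts gave 3 higher, against 3.31%, and limma on log2(RPKM + 0.1) called 0 lower, against 1.53%. At least 2-fold lower at stage C there was 1 member with a pseudocount of 0.1, and 1 with a minimum of 1 RPKM, in place of 0. After division by the TMM factor the stage C ratio was 1.22 for the PIPs and 1.32 for the TIPs. Only uncalled members changed sign. TIP2-1 became -0.046 without TMM factors and in both limma fits and -0.0082 without a filter. Leaving out 1 stage took TIP2-1 to between -0.075 and 0.084, PIP1-3 to between -0.075 and 0.23, TIP1-1 to between -0.27 and 0.084 (0.0080 without stage B), and PIP2-6 to between -0.029 and 0.21. The causes were not tested. The stage term of the main analysis pairs each atcep1 library with the WT library of its stage. Counts under 20 reads, as in TIP5-1, NIP1-1, NIP2-1 and SIP2-1, limit what the depth can show. The same holds for TIP1-3, NIP4-1, NIP7-1, PIP2-4 and TIP4-1, each with such a count in at least 1 WT library.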

Other observations

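A further 3 aquaporin genes carry the description of an aquaporin-like superfamily protein and fall outside the 33. PIP2-3 (AT2G37180), a close copy of PIP2-2 on chromosome 2, had 23.2, 35.4 and 59.3 RPKM in atcep1 at stages A, B and C, against 23.3, 31.3 and 29.6 RPKM in WT, on 110, 169 and 300 reads in atcep1 and 108, 147 and 144 reads in WT. SIP1-2 (AT5G18290) had 3, 1 and 2 reads in atcep1 and 1, 1 and 2 reads in WT. TIP3-1 (AT1G73190), a channel of maturing seed vacuoles, had 0 reads in atcep1 and 0, 1 and 1 reads in WT.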
